A study of Mus with 8 samples.

Results

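The genes described here encode the enzymes that write and erase chemical marks on histones and on DNA, together with core subunits of Polycomb repressive complex 2 (PRC2). They are 44 mouse genes in 9 classes, from histone acetyltransferases to TET dioxygenases, and a gene was taken where a probe set of the array carried exactly its symbol and no other. By this rule 42 of the 44 members were measured, among 21154 gene symbols tested in all. Hdac5 and Sirt7 gave no value, because the array's annotation places each of them on a probe set that also carries a microRNA symbol.

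Acetyltransferases add acetyl groups to histone lysines, which opens chromatin and attracts bromodomain proteins, and the zinc-dependent histone deacetylases (HDACs) and NAD-dependent sirtuins take those groups off. Lysine demethylases remove methyl groups that either mark active genes or keep genes silent, and PRC2 places a silencing methyl mark on histone H3. DNA methyltransferases methylate cytosine in CpG pairs, and TET enzymes oxidize that methyl group. In macrophages, such enzymes are known to set how strongly inflammatory genes respond to bacterial lipopolysaccharide (LPS).

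RAW264 cells, a macrophage-like mouse line, were kept for 24 h with BTEE, an ethanol extract of the green microalga Botryococcus terribilis TEPMO-26, at 0.2 mg/mL, or in culture medium without it (control cells). All cells then received LPS at 1 ng/mL for 6 h or 17 h, so that the groups were BTEE-treated and control cells at 6 h and BTEE-treated and control cells at 17 h, with 2 Clariom S arrays each. No array measured cells without LPS, a single cell line stands for macrophages, and the labels name no ethanol vehicle for the control cells. The paper reports no significant cytotoxicity up to a BTEE concentration that is lower than the one used for these arrays. Whether toxicity had a part in the differences between BTEE-treated and control cells was not tested. No source says whether the 2 arrays of each group measured separate cultures, and p-values therefore measure only the spread between these arrays, which may be technical.

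Values are log2 signals, on which a difference of 1 is a doubling, and signals of different genes were not set against each other because probes differ in brightness. Arrays of the same group correlated at r between 0.9984 and 0.9987 over the 21154 gene symbols, and arrays of BTEE-treated and control cells at 1 time at r between 0.9942 and 0.9948. Of 12 macrophage markers, 11 lay above 5.08, the 95th percentile of the mean signal of 1439 sensory receptor genes, which a macrophage line should not express and which therefore show the array's background. In the lists of other cell types, 4 of 5 B cell, 4 of 5 T cell, 5 of 6 neutrophil and 4 of 5 fibroblast markers lay at or below that value. Of the 42 members, 36 lay above it, and Hdac7, Hdac11, Kdm2b, Kdm5b, Dnmt3b and Tet1 had mean signals at or below it. In RNA of whole cultures, fewer cells of a type and less RNA per cell cannot be told apart.

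After 6 h of LPS, BTEE-treated cells had lower signals of 12 members and higher signals of 8 than control cells, at an adjusted p under 0.05 (limma across all 21154 symbols), and 22 members did not pass. The members that moved most were the acetyltransferase Kat2b, the DNA methyltransferase Dnmt3a and the acetyltransferase Crebbp, which fell, and the acetyltransferase Kat6b and the demethylase Kdm5b, which rose, Kdm5b within the range of the sensory receptor genes. These were also the 5 members that passed with a fold above 1.5, 11.9% of those measured, against 10% of all symbols. The same 5 met the study's rule for a differentially expressed gene (an unadjusted p under 0.05 and a fold above 1.5), 3 of them lower and 2 higher, where 5.38% of all symbols were lower and 5.04% higher. Over all symbols, 30.2% passed at 6 h, 15.7% lower and 14.5% higher, and the members' share was 47.6%. Of the sensory receptor genes, 21.1% passed as well. Where the log2 signal averaged 6 or more over the 8 arrays, 17 of 35 members passed (48.6%), against 36.8% of all symbols. The median log2 difference was -0.04 over the members and -0.005 over all symbols. Both BTEE arrays lay below both control arrays for 17 members and above them for 16, and the arrays overlapped for 9, while 67.2% of all symbols had no overlap.

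The calls at 6 h differed in how far they rested on single arrays. Without the first or the second BTEE array at 6 h, 4 or 6 members were lower, and without the first or the second control array, 7 or 6 were. Without the first BTEE array or the first or second control array, 4, 4 and 3 members were higher. Kat2b, Kat6b, Crebbp, Kdm5b, Dnmt3a, Tet2 and Tet3 passed whichever of the 8 arrays was left out, and the other 13 members lost their call without at least 1 array. The spread of the sensory receptor differences at 6 h (SD 0.379 on the log2 scale) was also added to each standard error. With it limma called 0 of all symbols and so 0 members, and Kat2b and Kdm5b had an unadjusted p under 0.05.

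After 17 h of LPS, 7 members were lower and 4 higher in BTEE-treated cells than in control cells, and 31 did not pass. The members' share of 26.2% stood beside 28.5% of all symbols, 13.6% lower and 14.9% higher, and 17.4% of the sensory receptor genes. At signals of at least 6 it was 25.7% of members (9 of 35), against 38.7% of all symbols. Only the demethylases Kdm2b and Kdm5a, which fell, and Kdm4a, which rose, passed with a fold above 1.5 (7.14% of members, against 8.42% of all symbols), and by the study's rule the same 2 were lower and 1 higher, beside 4.19% and 4.59% of all symbols. The median log2 difference was -0.02 over the members and 0.005 over all symbols, and the arrays overlapped for 14 members, with 14 lower and 14 higher on both arrays, while 66.5% of all symbols had no overlap. Hdac1, Hdac2, Kdm1a, Kdm2b, Kdm4a and Kdm5a passed whichever array was left out. Without the first or second BTEE array or the first or second control array at 17 h, 4, 4, 3 and 4 members were lower. With the sensory receptor spread at 17 h (SD 0.358) added to the standard errors, 0 of all symbols and so 0 members passed. Of the members, 0 had an unadjusted p under 0.05.

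**Figure D1:**
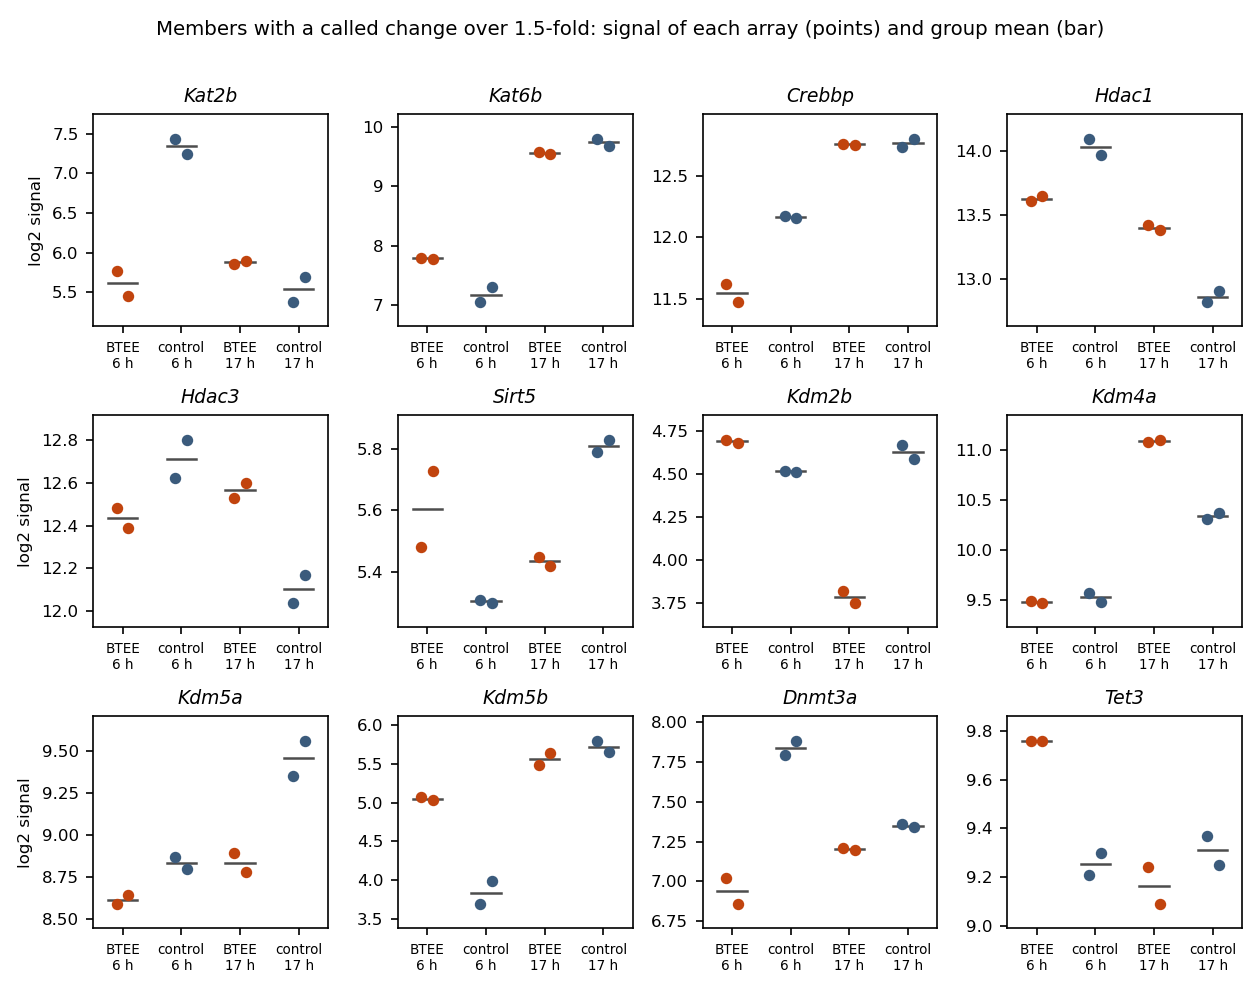
Log2 signal of 12 members on each of the 8 arrays (points), with the mean of each group of 2 arrays (bars), for BTEE-treated and control cells at 6 h and 17 h of LPS. Kat2b stands at 5.77 and 5.45 in BTEE-treated cells at 6 h, near its level at 17 h, and at 7.44 and 7.25 in control cells at 6 h, and Kdm5b stands at 5.07 and 5.03 in BTEE-treated cells at 6 h and at 3.69 and 3.98 in control cells.

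Of the 9 histone acetyltransferases, 4 fell and 1 rose with BTEE at 6 h, where 15.7% of all symbols fell and 14.5% rose, and 0 passed at 17 h, where 28.5% of all symbols did. Of all symbols with a signal of at least 6, 20.3% fell and 16.5% rose at 6 h, and 38.7% passed at 17 h. Kat2b (PCAF), which acetylates histone H3 and the p65 subunit of NF-κB, lies at chr17:53566774-53672721 of GRCm38, the build of all positions given here. It gave 5.77 and 5.45 in BTEE-treated cells at 6 h, against 7.44 and 7.25 in control cells. Both BTEE arrays were far below both control arrays, a log2 difference of -1.74 (SE 0.14), a 3.33-fold fall (limma, adjusted p = 0.000836). The BTEE arrays lay little above 5.08, the background value, so the size of this fall is uncertain. At 17 h Kat2b gave 5.86 and 5.89 in BTEE-treated cells and 5.38 and 5.69 in control cells. The BTEE arrays were again apart from the control arrays but on the other side, and the difference of 0.34 (SE 0.14) did not pass (adjusted p = 0.12).

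Crebbp (CBP) and Ep300 (p300) are paired coactivators that acetylate histones at enhancers and are recruited by NF-κB and interferon regulatory factors. Crebbp (chr16:4081334-4213957) gave 11.62 and 11.48 in BTEE-treated cells at 6 h, against 12.17 and 12.16 in control cells, a log2 difference of -0.62 (SE 0.08, adjusted p = 0.00246). At 17 h its signals were 12.76 and 12.75 in BTEE-treated cells and 12.73 and 12.8 in control cells, which overlapped. Ep300 fell by 0.40 at 6 h (SE 0.08, adjusted p = 0.0137), a call that was lost without 3 of the 8 arrays (highest adjusted p = 0.0643, without the second BTEE array), and its difference at 17 h was 0.11 (adjusted p = 0.38). Both members of the pair were thus lower at 6 h, and neither passed at 17 h.

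The MYST acetyltransferases moved in different directions. Kat6b (MORF; chr14:21499216-21672478), which acetylates histone H3, gave 7.79 and 7.78 in BTEE-treated cells at 6 h, against 7.05 and 7.29 in control cells, a log2 difference of 0.62 (SE 0.10, adjusted p = 0.0049). At 17 h it gave 9.58 and 9.55 in BTEE-treated cells and 9.81 and 9.69 in control cells, a difference of -0.19 that did not pass (adjusted p = 0.193). The groups were apart at both times, with BTEE above control at 6 h and below it at 17 h. Kat8 (MOF), the main acetyltransferase of a histone H4 lysine, fell by 0.39 at 6 h (SE 0.10, adjusted p = 0.0273). Kat6a, the close relative of Kat6b, had a difference of 0.34 at 6 h that did not pass (adjusted p = 0.0708), and Kat2a, Kat5 and Kat7 differed by between -0.18 and -0.06 at 6 h and did not pass at either time.

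Class I HDACs include the nuclear deacetylases of the Sin3, NuRD, CoREST and NCoR corepressor complexes. Of the 4 class I HDACs, 3 rose with BTEE at 17 h, when 14.9% of all symbols rose. Of all symbols with a signal of at least 6, 22% rose. Hdac1 gave 13.42 and 13.38 in BTEE-treated cells at 17 h, against 12.82 and 12.9 in control cells, a log2 difference of 0.54 (SE 0.08, adjusted p = 0.00409). At 6 h it gave 13.61 and 13.65 in BTEE-treated cells, against 14.1 and 13.97 in control cells, a difference of -0.41 (adjusted p = 0.00986, and 0.0508 without the first BTEE array). BTEE-treated cells were thus above control cells at 17 h and below them at 6 h, with no overlap of arrays at either time. Hdac2, the partner of Hdac1 in these complexes, was higher with BTEE at both times.

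Hdac2 rose by 0.47 at 17 h (SE 0.07, adjusted p = 0.00555) and by 0.25 at 6 h (adjusted p = 0.0431), and the call at 6 h was lost when any of the 8 arrays was left out. Hdac3, the catalytic subunit of the NCoR complex, gave 12.53 and 12.6 in BTEE-treated cells at 17 h, against 12.04 and 12.17 in control cells. The difference of 0.46 (SE 0.09) passed (adjusted p = 0.012), but not without the second BTEE array or the first control array at 17 h (highest adjusted p = 0.0703). At 6 h Hdac3 gave 12.48 and 12.39 in BTEE-treated cells and 12.62 and 12.8 in control cells, a difference of -0.28 that did not pass (adjusted p = 0.0612). Hdac8, the fourth class I enzyme, differed by -0.005 at 6 h and -0.03 at 17 h.

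Of the other zinc-dependent deacetylases, 3 class IIa and 3 class IIb and IV enzymes were measured. None passed at 17 h, when 28.5% of all symbols did. At 6 h 1 of the class IIa enzymes and 2 of the others passed, beside 30.2% of all symbols. Of the class IIa enzymes, which shuttle between nucleus and cytoplasm, Hdac7 fell by 0.33 at 6 h (adjusted p = 0.0477, a mean signal within the sensory receptor range), and Hdac4 and Hdac9 did not pass at either time. For Hdac4 this holds for the brighter of its 2 probe sets. The dimmer one, not tested alone, gave 6.48 and 6.29 in BTEE-treated cells at 17 h, against 6.09 and 5.86 in control cells. At 6 h its arrays overlapped. Hdac6, a mainly cytoplasmic deacetylase of tubulin, rose by 0.43 at 6 h (SE 0.11, adjusted p = 0.0273), and its class IIb relative Hdac10, a polyamine deacetylase, fell by 0.40 (SE 0.10, adjusted p = 0.027). All 3 of these calls were lost without the first BTEE array at 6 h, among others. Hdac11, the sole class IV enzyme, did not pass at either time.

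Among the 5 measured sirtuins, 1 rose with BTEE at 6 h, where 14.5% of all symbols rose, and 2 fell at 17 h, where 13.6% did. At a signal of at least 6, these shares of all symbols were 16.5% and 16.7%. Sirt5, a mitochondrial enzyme that removes succinyl and malonyl groups, gave 5.48 and 5.73 in BTEE-treated cells at 6 h, against 5.31 and 5.3 in control cells, a difference of 0.30 (SE 0.09, adjusted p = 0.0486). At 17 h it gave 5.45 and 5.42 in BTEE-treated cells, against 5.79 and 5.83 in control cells, a difference of -0.38 (adjusted p = 0.0251). BTEE lay above control at 6 h and below it at 17 h, and both calls were lost without single arrays (highest adjusted p = 0.205 at 6 h and 0.107 at 17 h). All values of Sirt5 lay between 5.3 and 5.83, little above the background value of 5.08. Sirt1, a nuclear deacetylase of histones and of p65, fell by 0.34 at 17 h (SE 0.09, adjusted p = 0.0332, and 0.144 without the first BTEE array). Sirt2, Sirt3 and Sirt6 did not pass at either time.

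The lysine demethylases held the 3 members that passed with a fold above 1.5 at 17 h, when 4 of 8 fell and 1 rose, beside 13.6% and 14.9% of all symbols. At a signal of at least 6, these shares of all symbols were 16.7% and 22%. One of the 4 that fell, Kdm2b, lay within the background range on every array. Kdm4a (chr4:118136957-118180090), which removes methyl groups from histone H3 at a silencing mark, gave 11.08 and 11.1 in BTEE-treated cells at 17 h, against 10.31 and 10.37 in control cells. Its difference of 0.75 (SE 0.07, adjusted p = 0.00142) was a rise of 1.68-fold. At 6 h it gave 9.49 and 9.47 in BTEE-treated cells and 9.57 and 9.48 in control cells, a difference of -0.05 that did not pass. The 2 BTEE arrays at 17 h were thus the highest of all 8.

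Kdm5a and Kdm5b are paralogs that remove the methyl mark of active promoters, and their changes fell at different times. Kdm5a (chr6:120364099-120444574) gave 8.89 and 8.78 in BTEE-treated cells at 17 h, against 9.35 and 9.56 in control cells, a difference of -0.62 (SE 0.09, adjusted p = 0.00467), and its difference of -0.22 at 6 h did not pass (adjusted p = 0.114). Kdm5b (chr1:134560178-134632878) gave 5.07 and 5.03 in BTEE-treated cells at 6 h, against 3.69 and 3.98 in control cells, a difference of 1.22 (SE 0.12, adjusted p = 0.00108). At 17 h Kdm5b gave 5.49 and 5.64 in BTEE-treated cells and 5.8 and 5.65 in control cells, a difference of -0.16 that did not pass. The control arrays at 6 h were the lowest of the 8 for Kdm5b, and those arrays together with the BTEE arrays at 6 h lay within the range of the sensory receptor genes.

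Kdm2a and Kdm2b are CpG-binding demethylases, and Kdm2b also brings a Polycomb complex to CpG islands. Kdm2b (chr5:122870664-122989270) gave 3.82 and 3.75 in BTEE-treated cells at 17 h, against 4.67 and 4.59 in control cells, a difference of -0.85 (SE 0.07, adjusted p = 0.00118). At 6 h it gave 4.7 and 4.68 in BTEE-treated cells and 4.52 and 4.51 in control cells, a difference of 0.18 (adjusted p = 0.102). All 8 values were below 5.08, so this gene's signal stayed within the background range on every array. Kdm2a fell at both times, by 0.37 at 17 h (SE 0.07, adjusted p = 0.0094, and 0.0566 without the first control array at 17 h) and by 0.24 at 6 h (adjusted p = 0.0383, lost without any of the 8 arrays).

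Kdm1a (LSD1), the demethylase of the CoREST complex, fell by 0.39 at 17 h (SE 0.07, adjusted p = 0.00794) and differed by 0.15 at 6 h (adjusted p = 0.143). Kdm6b (JMJD3), a demethylase of the PRC2 mark that LPS induces in macrophages, gave 8.89 and 9.13 in BTEE-treated cells at 6 h, against 9.52 and 9.47 in control cells. Its difference of -0.49 (SE 0.11) passed (adjusted p = 0.0185, and 0.0892 without the first BTEE array). At 17 h Kdm6b gave 9.06 and 8.82 in BTEE-treated cells and 8.93 and 8.9 in control cells, which overlapped. Kdm3a, a demethylase of a silencing mark, did not pass at either time.

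**Figure D2:**
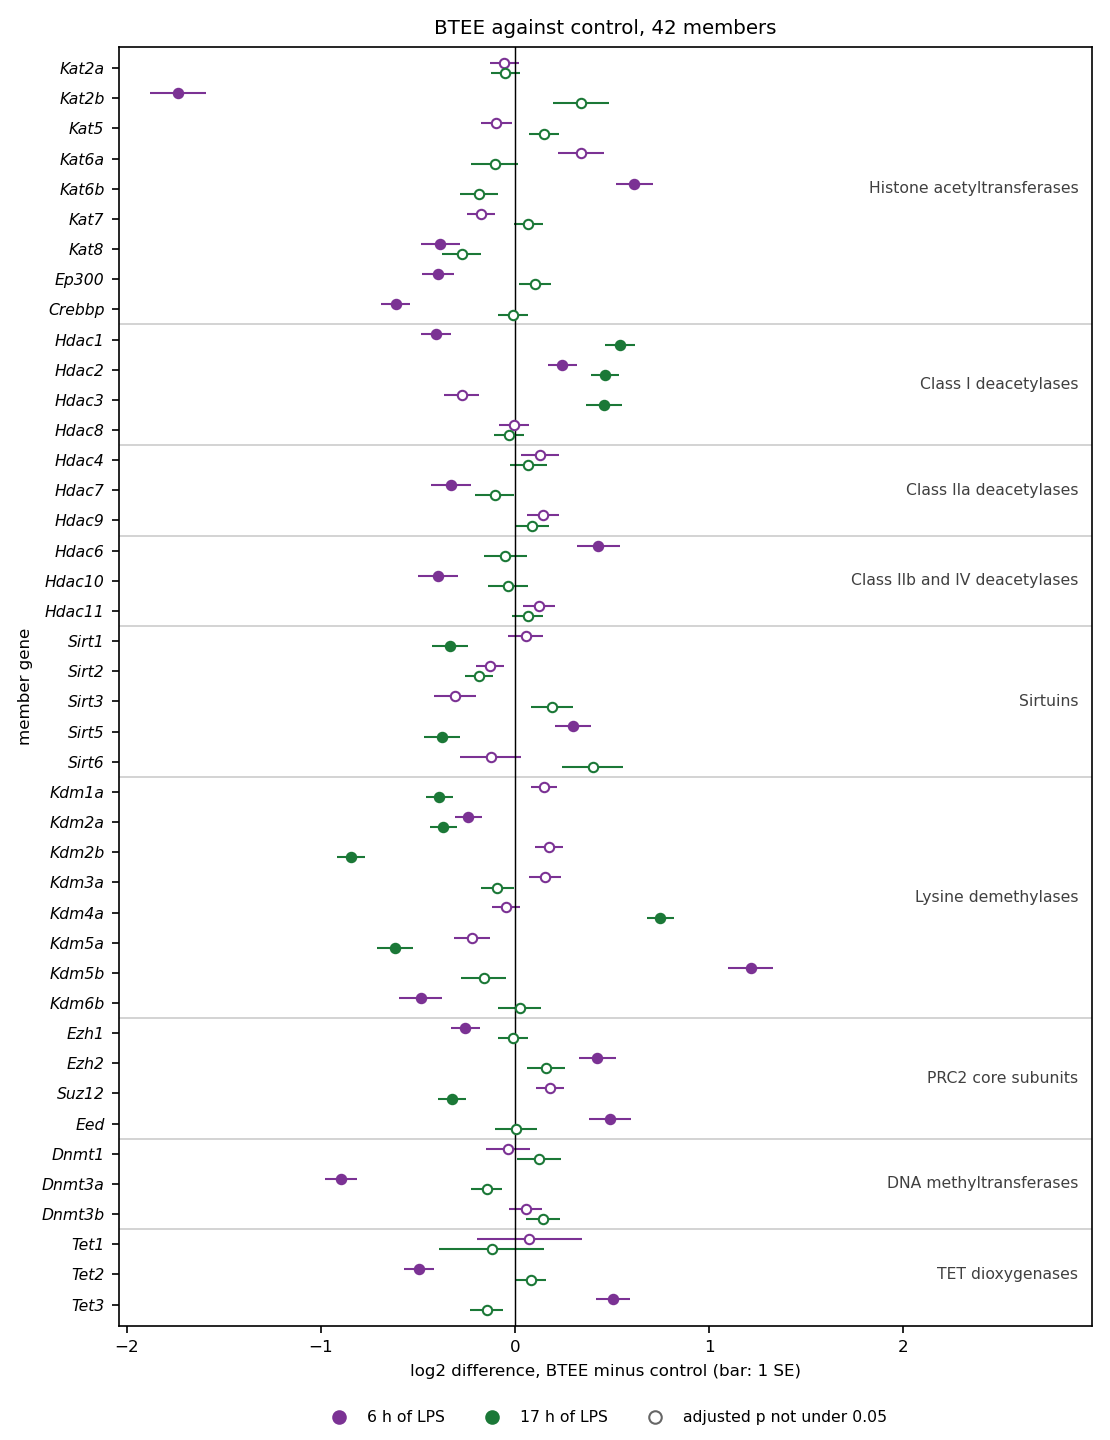
Log2 difference between BTEE-treated and control cells for the 42 measured members, by class, at 6 h and 17 h of LPS, with the standard error of limma (bars) and filled points where the adjusted p was under 0.05. The 6 h points spread from -1.74 (Kat2b) to 1.22 (Kdm5b, at background signal), and the 17 h points from -0.85 (Kdm2b, at background signal) to 0.75 (Kdm4a).

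PRC2 is built from a methyltransferase, Ezh1 or Ezh2, with Suz12 and Eed, which the enzyme needs to work. At 6 h Ezh2 rose by 0.43 (SE 0.10, adjusted p = 0.0171) and Eed, the subunit that reads the mark, by 0.49 (SE 0.11, adjusted p = 0.0153), whereas Ezh1 fell by 0.26 (SE 0.08, adjusted p = 0.0427). All 3 calls were lost without the first BTEE array at 6 h (adjusted p = 0.0776 for Ezh2, 0.0783 for Eed and 0.165 for Ezh1). At 17 h only Suz12 passed, with a fall of 0.33 (SE 0.07, adjusted p = 0.0164, and 0.0763 without the first control array). Thus neither time showed all 4 subunits passing in 1 direction.

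Of the DNA methyltransferases, Dnmt3a, which methylates unmarked DNA, was the one that passed. Dnmt3a (chr12:3801559-3914443) gave 7.02 and 6.86 in BTEE-treated cells at 6 h, against 7.79 and 7.88 in control cells, a difference of -0.90 (SE 0.08, adjusted p = 0.000964), a 1.86-fold fall. At 17 h it gave 7.21 and 7.2 in BTEE-treated cells and 7.36 and 7.34 in control cells, a difference of -0.15 that did not pass (adjusted p = 0.221), although the BTEE arrays were the lower ones at both times. Dnmt1, which copies methylation after replication, and Dnmt3b, at background signal, did not pass at either time.

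Tet2 and Tet3 moved in opposite directions at 6 h. Tet2, which in macrophages is known to restrain interleukin-6, gave 12.31 and 12.33 in BTEE-treated cells, against 12.86 and 12.77 in control cells, a difference of -0.50 (SE 0.08, adjusted p = 0.00482). Tet3 gave 9.76 on both BTEE arrays, against 9.21 and 9.3 in control cells, a difference of 0.51 (SE 0.09, adjusted p = 0.00639). At 17 h Tet2 differed by 0.09 and Tet3 by -0.15, and neither passed. Tet1 did not pass, and its 2 BTEE arrays at 6 h, 4.55 and 3.64, were farther apart than those of any other member in any group.

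Whether BTEE acted differently at the later time was tested as the effect at 17 h minus that at 6 h, which compares all 4 groups in 1 model. The effect differed for 18 members, lower at 17 h for 8 and higher for 10, that is 42.9% of members beside 31.4% of all symbols (14.8% lower and 16.7% higher), and beside 40.5% of all symbols with a signal of at least 6. For 11 members the difference of effects passed with a fold above 1.5 (26.2%, against 20.2% of all symbols, and 22.4% by the study's rule). The difference was largest for Kat2b among the members above background, at 2.08 (SE 0.20, adjusted p = 0.00136), followed by Hdac1 at 0.95 (SE 0.11, adjusted p = 0.00204), Kat6b at -0.80 and Kdm4a at 0.80. Kdm5b gave -1.38 (SE 0.16, adjusted p = 0.00217) and Kdm2b -1.02. Kdm2b on all arrays and Kdm5b on the arrays of 6 h lay within the range of the sensory receptor genes, so their differences have no reliable size and no rank among these. Outside the control arrays of 6 h, Kat2b lay between 5.38 and 5.89, little above that range, so the size of its difference is uncertain too. The calls of Eed, Ep300, Kdm6b and Sirt3 were lost when single arrays were left out (highest adjusted p = 0.126, 0.0619, 0.12 and 0.118), and those of the other 14 were not. With the sensory receptor spread (SD 0.524) in the standard error 0 of all symbols and so 0 members passed. Kat2b and Kdm5b had an unadjusted p under 0.05.

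Of the members called with BTEE, 16 passed at 6 h alone, 7 at 17 h alone and 4 at both times. Of these 4, Hdac2 was higher and Kdm2a lower with BTEE at both times, and Hdac1 and Sirt5 changed sign. The calls of all 4 at 6 h were lost when single arrays were left out, as were those of Kdm2a and Sirt5 at 17 h. For 14 members neither time nor the difference of effects passed, among them Kat2a, Kat5, Kat7, Hdac8, Dnmt1 and Kdm3a. Of all symbols 30.2% passed at 6 h and 28.5% at 17 h. How many of them passed at both times or at neither was not counted, so the members' split has no baseline.

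**Figure D3:**
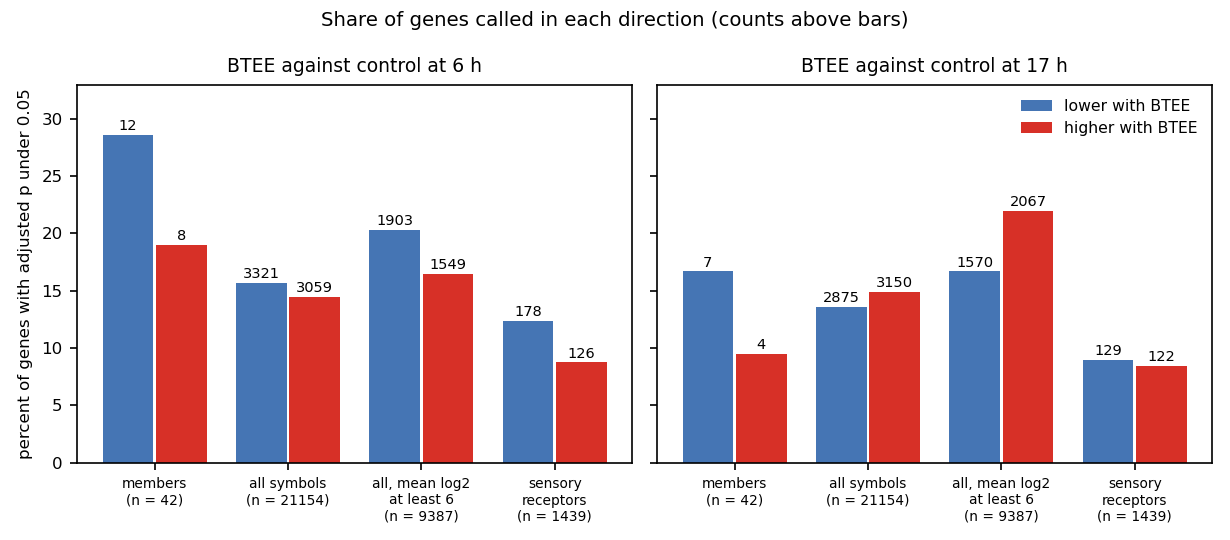
Percent of symbols called lower and higher with BTEE at 6 h and 17 h (adjusted p under 0.05) among the 42 members, all 21154 symbols, all symbols whose log2 signal averaged 6 or more, and 1439 sensory receptor genes, with the number of symbols on each bar. At 6 h the members' bars reach 28.6% lower and 19% higher, and at 17 h 16.7% lower and 9.52% higher.

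More members passed between 17 h and 6 h of LPS than between BTEE-treated and control cells, and many of these differences were large in both kinds of cells. In BTEE-treated cells, 20 members were higher and 8 lower at 17 h than at 6 h (66.7%, beside 47.6% of all symbols, 23.6% higher and 24% lower, and at a signal of at least 6 it was 71.4% of members and 70.8% of all symbols). In control cells, 19 were higher and 12 lower (73.8%, beside 52.3% of all symbols, 25.8% higher and 26.4% lower, and at a signal of at least 6 it was 80% of members and 75.5% of all symbols). By the study's rule, 17 members differed in BTEE-treated cells (40.5%) and 18 in control cells (42.9%), beside 25.2% and 29.7% of all symbols. At a signal of at least 6, 42.8% and 49% of all symbols differed by this rule. Of the 35 members at that signal, 13 were higher and 3 lower in BTEE-treated cells, and 13 higher and 4 lower in control cells. The arrays of 17 h and 6 h did not overlap for 25 members that were higher and 9 that were lower at 17 h in BTEE-treated cells, and for 24 and 13 in control cells (all symbols: 72.7% and 75.5%). The median log2 difference of the members was 0.26 in BTEE-treated cells and 0.20 in control cells, against 0 and 0.005 over all symbols. The comparisons over time share their arrays with those of BTEE, so their values stand side by side and were not correlated.

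Kat6b had the highest difference over time in both kinds of cells. It gave 9.58 and 9.55 in BTEE-treated cells at 17 h, against 7.79 and 7.78 at 6 h, a log2 difference of 1.78 (SE 0.10, adjusted p = 7.14e-06), and 9.81 and 9.69 in control cells at 17 h, against 7.05 and 7.29 at 6 h, a difference of 2.58 (adjusted p = 1.07e-06). Sirt1 was higher at 17 h by 1.52 in BTEE-treated cells and 1.91 in control cells, Sirt2, a mainly cytoplasmic deacetylase, by 1.27 and 1.32, and Kdm3a by 1.44 and 1.68. These 4 members had all arrays of 17 h above all arrays of 6 h. With the sensory receptor spread in the standard error, limma called 0 members in BTEE-treated cells, beside 483 of all symbols. There 11 members had an unadjusted p under 0.05. In control cells Kat6b (adjusted p = 0.0193) and Sirt1 (adjusted p = 0.0477) passed, beside 776 of all symbols.

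Both PRC2 methyltransferases were higher at 17 h. Ezh1 gave 11.29 and 11.23 in BTEE-treated cells at 17 h, against 9.58 and 9.65 at 6 h, and differed by 1.65 in BTEE-treated cells and 1.40 in control cells. Ezh2 differed by 1.25 and 1.52 and Suz12 by 0.59 and 1.10, whereas Eed was lower at 17 h by 0.84 in BTEE-treated cells and 0.36 in control cells. The call of Eed in control cells was lost without 3 of the 8 arrays, with a difference of -0.23 (adjusted p = 0.136) without the first control array at 6 h. Dnmt1 was higher at 17 h by 1.02 in BTEE-treated cells and 0.86 in control cells. For Hdac4 the brighter of its 2 probe sets was higher at 17 h by 0.92 in BTEE-treated cells and 0.98 in control cells. Its dimmer probe set disagreed, with 6.48 and 6.29 in BTEE-treated cells at 17 h, against 6.31 and 5.88 at 6 h, and with 6.09 and 5.86 in control cells at 17 h, against 6.09 and 6.13 at 6 h.

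For some members the change over time differed in size between BTEE-treated and control cells, and the test of that is the difference of BTEE effects given above. Kat2b differed by 0.27 in BTEE-treated cells (adjusted p = 0.173) and was lower at 17 h by 1.81 in control cells (SE 0.14, adjusted p = 3.75e-05). Hdac1 was lower at 17 h by 0.23 in BTEE-treated cells, a call lost without 6 of the 8 arrays (highest adjusted p = 0.153), and by 1.18 in control cells. Kdm5b was higher by 0.52 in BTEE-treated cells (adjusted p = 0.0525 without the second BTEE array at 17 h) and by 1.89 in control cells. Crebbp was higher at 17 h by 1.21 in BTEE-treated cells and 0.60 in control cells, and Kdm4a by 1.61 and 0.82. Kdm2b was lower at 17 h by 0.91 in BTEE-treated cells and differed by 0.12 in control cells, which did not pass. The changes of Kdm2b and Kdm5b have no reliable size, because Kdm2b on all arrays and Kdm5b at 6 h were at background signal. Outside the control arrays of 6 h, Kat2b lay little above background, so the size of its change is uncertain too.

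**Figure D4:**
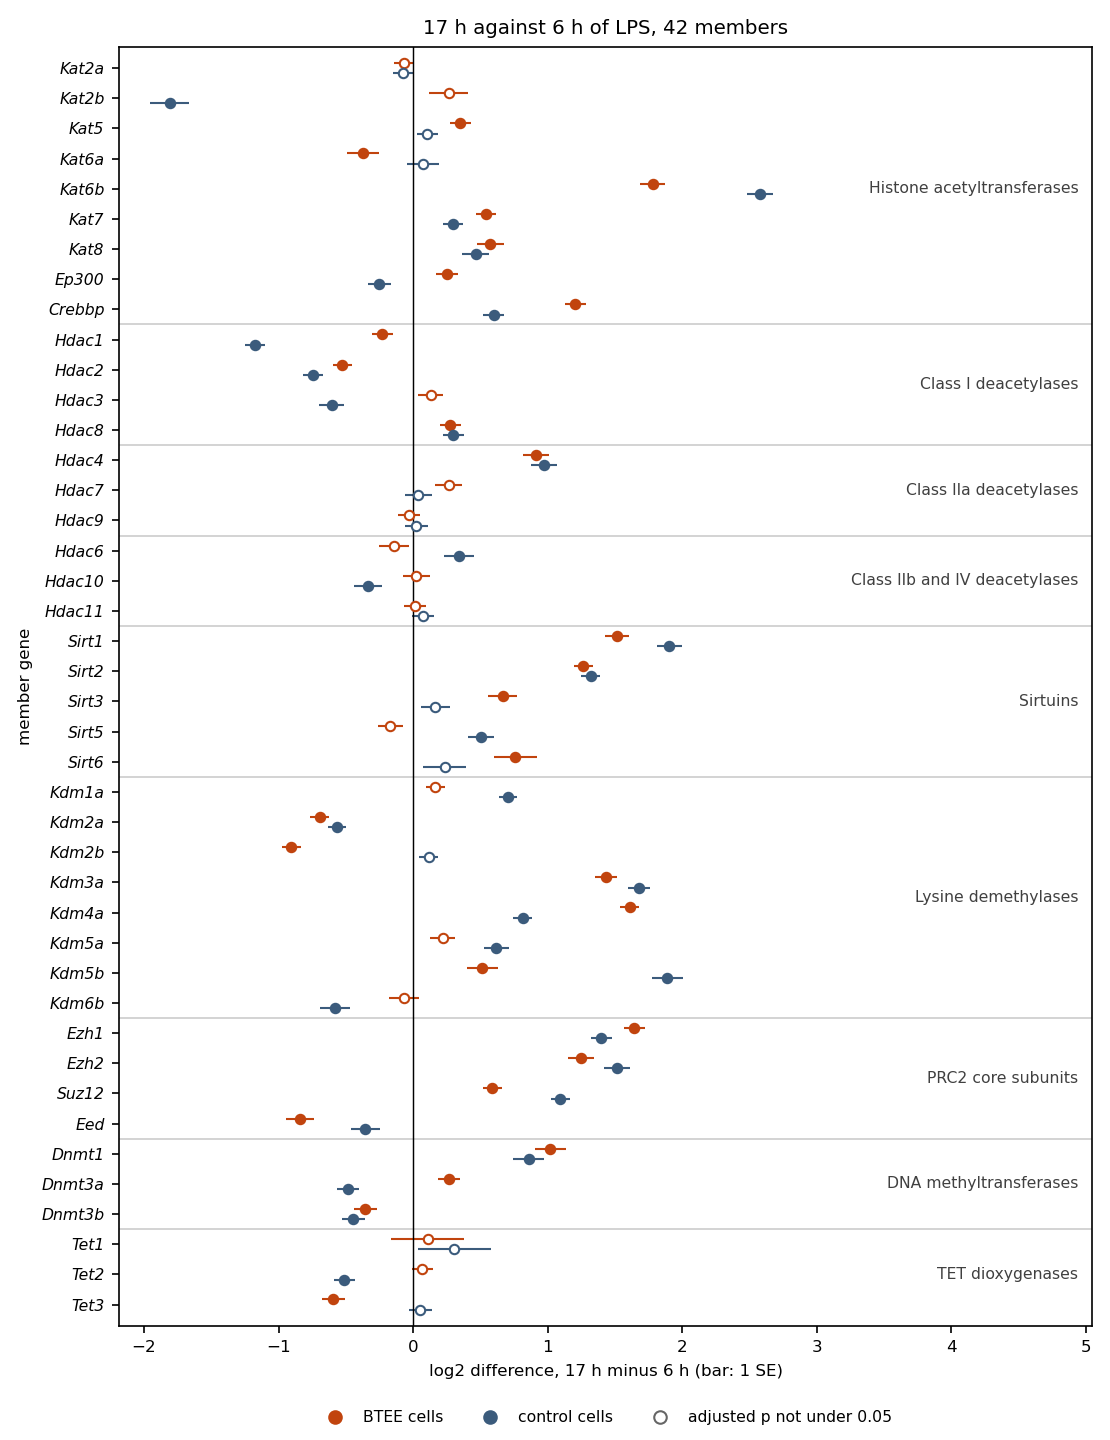
Log2 difference between 17 h and 6 h of LPS for the 42 measured members, in BTEE-treated and control cells, with the standard error of limma (bars) and filled points where the adjusted p was under 0.05. Values run from -0.91 (Kdm2b, at background signal) to 1.78 (Kat6b) in BTEE-treated cells and from -1.81 (Kat2b) to 2.58 (Kat6b) in control cells.

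Other genes of the same machinery were counted in the same fit, beside the 30.2% and 28.5% of all symbols that passed with BTEE at 6 h and 17 h. Of 27 partners of the acetyltransferases, 4 fell and 9 rose at 6 h, and 8 fell and 5 rose at 17 h. Ncoa1 (SRC-1), a coactivator that recruits Crebbp and Ep300, fell by 1.12 at 6 h (SE 0.10, adjusted p = 0.00104) and by 0.95 at 17 h (adjusted p = 0.00196). Trrap, the scaffold of the complexes of Kat2a, Kat2b and Kat5, fell by 0.77 at 6 h (adjusted p = 0.000964), and Brd1, a scaffold of MYST complexes, rose by 0.98 (adjusted p = 0.00374). Of 10 readers of acetyl-lysine and methyl marks, 2 fell and 2 rose at 6 h, and 1 fell and 3 rose at 17 h.

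Of 23 corepressor subunits that work with class I HDACs, 6 fell and 4 rose at 6 h, and 3 fell and 2 rose at 17 h. Suds3, a Sin3 subunit, rose by 0.75 at 6 h (SE 0.11, adjusted p = 0.0045). Of 25 other histone methyltransferases, 6 fell and 2 rose at 6 h, led by Setd1b (-0.66) and Kmt2b (-0.56), which mark active promoters, and 3 fell and 7 rose at 17 h, when Setd1a (-0.85) and Dot1l (-0.81) fell. Of 6 arginine methyltransferases, 2 fell and 1 rose at 6 h, and 2 fell and 2 rose at 17 h, Prmt1 by 0.78 (SE 0.07, adjusted p = 0.00122). Of 12 other demethylases, 2 fell and 2 rose at 6 h and 3 fell and 1 rose at 17 h, with Kdm1b, the relative of Kdm1a, higher by 0.68 at 6 h and Kdm8 lower by 0.57 at 17 h.

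Of 24 other Polycomb subunits, 3 fell and 3 rose at 6 h, and 10 fell and 2 rose at 17 h. Pcgf2 (MEL18) rose most, by 1.26 at 17 h (SE 0.14, adjusted p = 0.00202), and Phc2 fell by 0.72. Of 8 partners of DNA methylation, 1 fell at 6 h and 2 rose at 17 h. Beside the members, 0 of 18 S phase genes fell and 5 rose at 6 h, and 0 fell and 13 rose at 17 h. The mean log2 signal of that list was 10.3 on both BTEE arrays at 17 h and 9.94 on both control arrays, and 10.4 on both BTEE arrays at 6 h, against 10.2 and 10.3 on the control arrays. Of the 12 macrophage markers, 5 fell at 6 h, with a list mean of 14.5 and 14.6 on the BTEE arrays and 14.8 on both control arrays, and at 17 h 2 fell and 1 rose. The part of these genes in the members' values was not tested.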

How the data were processed

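The data were 8 Clariom S mouse arrays, 2 per group, of RNA from RAW264 cells. SST-RMA in the Transcriptome Analysis Console was the normalization used by the authors, who deposited log2 signals of 22206 probe sets on every array, annotated on mm10 (GRCm38). This processing forces the arrays' signal distributions to match, so a shift common to all genes would not be seen. The authors also deposited tables of their own comparisons, whose fold change, p-value and FDR columns were not used. The group means in those tables differed from means of the deposited log2 signals by at most 0.005.

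The log2 signals were used as deposited. Left out were 836 probe sets that carry several symbols and 3 that carry none, and the brightest probe set of a symbol was kept, which left out 213 and gave 21154 symbols. Hdac4 alone among the members had 2 probe sets. Groups came from the sample labels. The model of limma 3.58.1 (R 4.3.3) had a mean for each group, which left 4 residual degrees of freedom, and its prior had 3.12, and p-values were adjusted by Benjamini and Hochberg over all 21154 symbols. A member was called at an adjusted p under 0.05. The script was tested on simulated data. An exact permutation of 2 arrays against 2 cannot give a two-sided p below 0.333. The number of arrays limits the precision.

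The members and gene lists were chosen with earlier results of these data known. All members are named or counted, with values per array for those that passed with a fold above 1.5 in a BTEE comparison or in the difference of effects, and for some other called members, which were chosen after their values were seen. From each list of related genes, at most 3 genes with the largest change among the called ones were named. Some such results are not reported here. The alternatives tried were quantile normalization, centring on the median, a minimum signal, a fit of 4 arrays alone, the replicate number as a block, a trended robust prior, no moderation, the mean of probe sets, the study's rule for differentially expressed genes, the sensory receptor spread, and leaving out each array.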

Additional observations from a re-analysis of the deposited data

Results flagged for a closer look

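The effect of BTEE at 17 h differed from that at 6 h for 18 members (limma, adjusted p under 0.05 for the difference of the 2 effects on the log2 scale). That was 42.9% of members, beside 31.4% of all symbols and 40.5% of all symbols with a signal of at least 6. Among acetyltransferases the difference was 2.08 for Kat2b (0.34 at 17 h and -1.74 at 6 h, adjusted p = 0.00136), 0.61 for Crebbp (adjusted p = 0.00746), 0.50 for Ep300 (adjusted p = 0.0187) and -0.80 for Kat6b (adjusted p = 0.00636). Among deacetylases it was 0.95 for Hdac1 (0.54 at 17 h and -0.41 at 6 h, adjusted p = 0.00204), 0.74 for Hdac3 (adjusted p = 0.00721), 0.50 for Sirt3 (adjusted p = 0.0448), which passed at neither time alone, and -0.68 for Sirt5 (adjusted p = 0.00999). Among demethylases it was -1.38 for Kdm5b (-0.16 at 17 h and 1.22 at 6 h, adjusted p = 0.00217), -1.02 for Kdm2b (adjusted p = 0.00136), 0.80 for Kdm4a (adjusted p = 0.00254), -0.54 for Kdm1a (adjusted p = 0.00779) and 0.51 for Kdm6b (adjusted p = 0.0466). The sizes for Kdm5b and Kdm2b are not reliable, because Kdm5b at 6 h and Kdm2b on all arrays lay within the sensory receptor range. That for Kat2b is uncertain, because outside the control arrays of 6 h it lay little above that range. Leaving out single arrays removed the calls of Ep300, Sirt3 and Kdm6b.

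Of the PRC2 subunits, Suz12 had a difference of effects of -0.51 (adjusted p = 0.0108) and Eed of -0.49 (adjusted p = 0.0471, a call lost without single arrays). Of the enzymes that act on DNA, Dnmt3a had one of 0.75 (adjusted p = 0.00453), Tet2 of 0.58 (adjusted p = 0.00879) and Tet3 of -0.65 (adjusted p = 0.00846).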

How the results depend on the processing

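No called member changed its direction under any alternative run, but most of these runs could not have changed one. The minimum signal, the 4-array fit, the replicate block, the prior, the study's rule and the sensory receptor spread leave log2 differences as they were. Leaving out 1 array cannot reverse a difference between 2 groups whose arrays do not overlap. With the study's rule for differentially expressed genes (unadjusted p under 0.05 and fold over 1.5) in place of the adjusted p, 3 members were lower and 2 higher with BTEE at 6 h, 2 lower and 1 higher at 17 h, 11 differed between the times in their effect, and 17 changed over time in BTEE-treated cells and 18 in control cells. With the sensory receptor spread in the standard error, limma called 0 members in each direction with BTEE at 6 h and 17 h, 0 for the difference of effects, 0 over time in BTEE-treated cells and 2 in control cells. Of all symbols it called 0 with BTEE at 6 h, 0 at 17 h and 0 for the difference. Over time it called 483 of all symbols in BTEE-treated cells and 776 in control cells. The sensory receptor spread already holds the arrays' error, so this standard error counts that error more than once. At 6 h, 5 members were higher when the 4 arrays were fitted alone and 4 with no moderation. Leaving out 1 array gave 4 to 10 lower and 3 to 7 higher members at 6 h, 3 to 7 lower and 3 to 5 higher at 17 h, 15 to 17 for the difference of effects, 21 to 28 over time in BTEE-treated cells and 25 to 30 in control cells. The other alternatives kept each count within 1.5 times. The replicate numbers did not pair the arrays (correlation of deviations between -0.00111 and 0.0202), and with the replicate number as a block the counts were 10 lower and 6 higher at 6 h, 7 lower and 4 higher at 17 h, 15 for the difference, 27 over time in BTEE-treated cells and 30 in control cells.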

Other observations

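Some genes that work with the members were called with BTEE in opposite directions at the 2 times, and they are named here after their values were seen. Trrap rose by 0.35 at 17 h and fell by 0.77 at 6 h, a difference of effects of 1.12 (SE 0.10, limma adjusted p = 0.00116). Kmt2d, a methyltransferase of enhancers, rose by 0.52 at 17 h and fell by 0.53 at 6 h, a difference of 1.05 (SE 0.12, adjusted p = 0.00196). Prmt5, an arginine methyltransferase, fell by 0.50 at 17 h and rose by 0.29 at 6 h, a difference of -0.79 (SE 0.09, adjusted p = 0.00212).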
